A study of Mus musculus with 6 samples.

Results

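The genes described here encode the xenobiotic receptors CAR (Nr1i3) and PXR (Nr1i2) and the cytochrome P450 enzymes of the Cyp2b and Cyp3a subfamilies, in livers with and without Pak4 in hepatocytes. They were taken by symbol from the deposited table: Nr1i2, Nr1i3, Cyp2b9, Cyp2b10, Cyp2b13, Cyp3a11, Cyp3a13, Cyp3a16, Cyp3a25 and Cyp3a44, which are 10 of its 45777 genes. All 10 symbols were found, and 8 passed the filter on low counts, leaving out Cyp2b9 and Cyp2b13. The study measured liver RNA of 10-week-old C57BL/6 mice by sequencing in 2 genotypes with 3 libraries each, to see what hepatocyte Pak4 does to the liver transcriptome. The group called WT carried floxed Pak4 alleles (Pak4 flox/flox) and no Cre, so it stands for mice with an intact but floxed gene. The group called Pak4_KO carried the same floxed alleles plus Alb-Cre, a Cre recombinase under the albumin promoter that acts in hepatocytes. Which other cells of the liver kept Pak4 was not tested. Among the samples used here no group had Alb-Cre without floxed Pak4, so effects of Cre itself and of Pak4 loss cannot be told apart. No drug treatment is named in the labels for either group.

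CAR and PXR are nuclear receptors that sense drugs, steroids and bile acids. CAR is held in the cytoplasm by chaperones and moves to the nucleus when activated, and both receptors bind DNA together with RXR, a shared partner, at pairs of a hexamer close to AGGTCA or AGTTCA. In the liver they switch on enzymes and transporters that clear foreign and endogenous compounds: in mice Cyp2b10 is the usual readout of CAR and Cyp3a11 of PXR. Cyp2b and Cyp3a enzymes oxidise many lipophilic substrates, lie as near copies in gene clusters, and are strongest in hepatocytes near the central vein. Several of them, among them Cyp2b9, Cyp2b13, Cyp3a16, Cyp3a41a, Cyp3a41b and Cyp3a44, are known to be higher in female than in male mouse liver.

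The windows upstream of 5 of these genes are shown because their genes had like patterns over the libraries (Cyp3a11, Cyp3a44, Cyp3a16), the opposite direction of difference (Cyp3a25), or the widest spread among WT livers of the tested genes described here (Cyp2b10). Each is the 220 bases from 250 to 31 before the start site of the RefSeq promoter table on GRCm38.p6, written 5′ to 3′ on the strand of the gene, with capitals marking AGGTCA or AGTTCA read on either strand. That start site is the outer end of the RefSeq gene span for Cyp3a11 and Cyp2b10, and lies 17 bases inside it for Cyp3a44 and Cyp3a16 and 26 bases inside it for Cyp3a25, the first of 2 windows listed for that gene.
Cyp3a11, chr5:145879885-145880104, minus strand: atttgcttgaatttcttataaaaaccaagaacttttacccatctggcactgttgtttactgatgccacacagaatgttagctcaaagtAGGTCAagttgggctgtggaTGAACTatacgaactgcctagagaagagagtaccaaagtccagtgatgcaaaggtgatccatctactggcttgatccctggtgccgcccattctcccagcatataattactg
Cyp3a44, chr5:145805905-145806124, minus strand: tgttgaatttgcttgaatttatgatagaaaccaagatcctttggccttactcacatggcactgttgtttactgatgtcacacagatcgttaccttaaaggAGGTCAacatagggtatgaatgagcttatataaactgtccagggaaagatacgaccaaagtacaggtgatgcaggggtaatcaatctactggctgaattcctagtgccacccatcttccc
Cyp3a16, chr5:145469754-145469973, minus strand: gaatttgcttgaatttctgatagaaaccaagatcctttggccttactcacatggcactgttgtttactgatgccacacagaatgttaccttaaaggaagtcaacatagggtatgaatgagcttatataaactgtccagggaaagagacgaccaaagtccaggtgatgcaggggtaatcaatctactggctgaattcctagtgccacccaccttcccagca
Cyp3a25, chr5:146009649-146009868, minus strand: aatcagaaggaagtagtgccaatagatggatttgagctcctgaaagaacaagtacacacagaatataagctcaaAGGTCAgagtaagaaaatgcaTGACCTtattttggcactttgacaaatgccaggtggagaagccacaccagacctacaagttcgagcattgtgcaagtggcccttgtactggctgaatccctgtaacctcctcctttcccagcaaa
Cyp2b10, chr7:25897408-25897627, plus strand: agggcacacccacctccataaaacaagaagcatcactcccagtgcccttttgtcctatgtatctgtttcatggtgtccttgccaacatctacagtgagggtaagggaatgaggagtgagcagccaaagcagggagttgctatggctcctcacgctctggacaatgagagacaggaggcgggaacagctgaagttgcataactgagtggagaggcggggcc

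The Cyp3a11 window held 2 hexamers, AGGTCA at 162 to 157 bases before the start and AGTTCA on the other strand at 142 to 137. The Cyp3a44 window held 1, AGGTCA at 150 to 145, and the Cyp3a25 window held 2 copies of AGGTCA on opposite strands, at 176 to 171 and 155 to 150. No hexamer was found in the windows of Cyp3a16, Cyp3a13, Cyp2b10, Nr1i2 or Nr1i3, and the Cyp2b9 and Cyp2b13 windows each held AGGTCA at 138 to 133. The start site used for Cyp3a13 lies 3991 bases inside its gene span, so its window is not upstream of the whole gene, and those of Nr1i2, Nr1i3, Cyp2b9 and Cyp2b13 lie 25 to 107 bases inside theirs. Across 27025 RefSeq windows of the same kind, 12.4% held AGGTCA, 10.7% held AGTTCA and 21.8% held either. Pairs of these hexamers in the same direction with 3 or 4 bases between them (AGTTCANNNAGTTCA, AGGTCANNNAGTTCA, AGGTCANNNNAGTTCA, AGTTCANNNNAGTTCA, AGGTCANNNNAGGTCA), or facing away from each other with 6 between (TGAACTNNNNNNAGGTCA, TGAACTNNNNNNAGTTCA), were searched on both strands and matched none of the windows of these 10 genes. Each such exact pair occurred in at most 0.0111% of the 27025 windows, so its absence from 10 windows says little. Pairs with inexact hexamers were not searched. The distal enhancers of these genes lie outside the windows. Over all aligned columns, gaps included, the Cyp3a44 and Cyp3a16 windows were 92.9% identical, the Cyp3a11 and Cyp3a44 windows 69.8%, the Cyp3a11 and Cyp3a25 windows 51.2%, and the Cyp2b9 and Cyp2b13 windows differed at 2 of 220 bases.

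Totals ran from 39603272 to 52521400 reads per library. Pak4 itself (p21-activated kinase 4, NCBI gene 70584, chromosome 7, 28558819 to 28598184, GRCm38.p6) stood at 5.93, 7.15 and 6.44 CPM (read counts scaled to a common library total with TMM factors) in WT replicates 1, 2 and 3 and at 1.37, 2.24 and 1.90 CPM in Pak4_KO replicates 1, 2 and 3. Each Pak4_KO library lay below each WT library, with a log2 fold change of -1.82 (adjusted p = 0.0169, SE 0.24). Its adjusted p was 0.0562 without WT replicate 1, 0.0608 without WT replicate 2 and 0.0936 without Pak4_KO replicate 3, with the same direction. All such tests are the edgeR quasi-likelihood test with Benjamini-Hochberg adjustment over the 16197 tested genes. Which animal gave which library is not labelled, and the p-values cover the spread of the 6 libraries, which may be technical. In whole liver fewer cells of a type and less RNA per cell cannot be told apart. Of the 16197 genes, 76 were called at an adjusted p under 0.05, 43 higher and 33 lower in Pak4_KO, and leaving out 1 library at a time gave 22 to 34 higher and 13 to 47 lower.

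None of the 8 tested genes passed that test, where 0.469% of all genes did. The genes fell into 3 patterns. Cyp3a11, Cyp3a44 and Cyp3a16 were above all WT libraries in all Pak4_KO libraries, by 2.24-fold, 2.00-fold and 2.65-fold in mean CPM. Cyp3a25 and Cyp3a13 had lower means in Pak4_KO with groups that overlapped. The receptors and Cyp2b10 overlapped between the groups, Cyp2b10 with WT livers that ranged from the Pak4_KO level to far under it.

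At an unadjusted p under 0.05 the tested genes gave 3 higher (Cyp3a11, Cyp3a44, Cyp3a16) and 1 lower (Cyp3a25), where 4.51% of all tested genes were higher and 3.69% lower by that rule. Groups that did not overlap were 3 higher and 0 lower, where 7.35% and 6.06% of all tested genes did so. Those 3 genes are near copies that could share reads, so they may not be 3 separate observations. The median log2 fold change of the 8 genes was 0.61, against 0.0045 over all tested genes. The DESeq2 Wald test called 2 of the 8, Cyp3a11 (log2 fold change 1.15, adjusted p = 0.0135) and Cyp3a44 (0.99, adjusted p = 0.0238), both higher. It called 175 genes higher and 159 lower in all, and limma-voom called none of the 8.

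**Figure D1:**
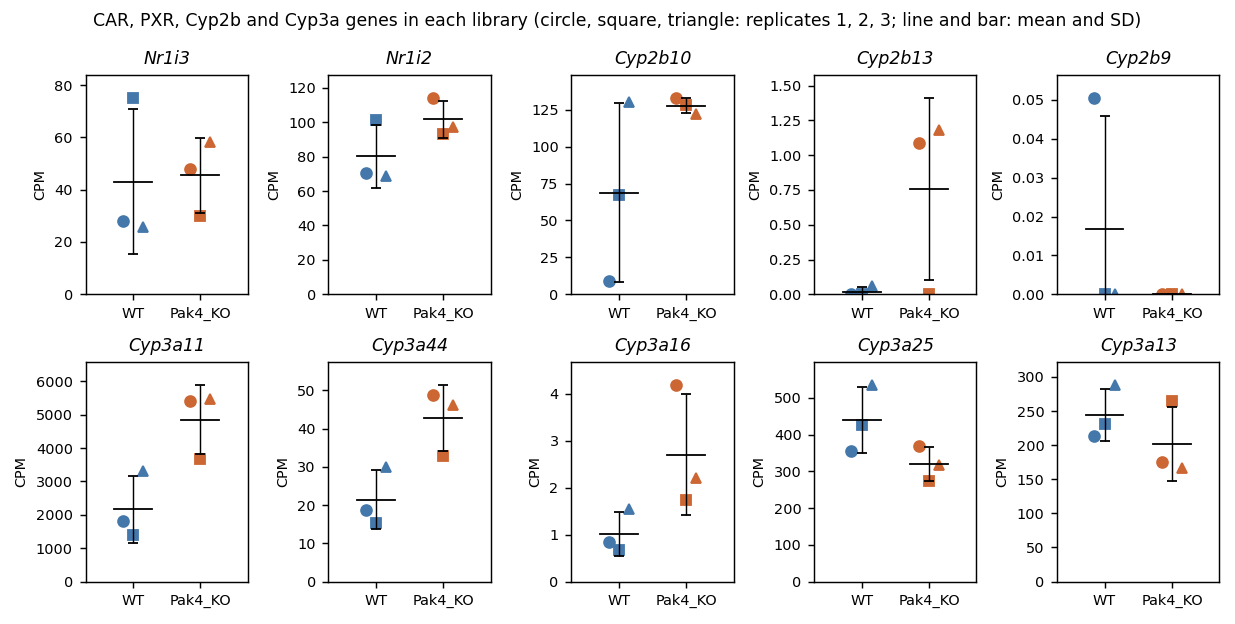
TMM-scaled CPM of the 10 genes in each library on linear axes that start at 0, with circles, squares and triangles for replicates 1, 2 and 3 of WT (blue) and Pak4_KO (orange), the horizontal line at the mean and the bar at 1 SD. Cyp3a11, Cyp3a44 and Cyp3a16 show no overlap between the groups, and Cyp2b10 shows 1 WT library at 9.03 CPM and another at 130.2 CPM beside Pak4_KO libraries of 122 to 133 CPM.

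Per unit of transcript length, the genes spanned a wide range of abundance. On the TPM scale of the deposited table, the WT median was 1510.3 for Cyp3a11, followed by 342 for Cyp3a25, 127 for Cyp3a13, 57.8 for Cyp2b10, 49.0 for Nr1i2, 32.8 for Nr1i3, 17.1 for Cyp3a44 and 0.800 for Cyp3a16, with Cyp2b9 and Cyp2b13 at 0. The ranges of Cyp3a11, Cyp3a25 and Cyp3a13 over the 3 WT libraries did not overlap with each other or with any lower gene. Cyp2b10, with TPM from 8.21 to 112 in WT, overlapped with Nr1i2 (45.3 to 65.8), Nr1i3 (27.6 to 77.6) and Cyp3a44 (12.4 to 24.7), so its place in the WT order is not resolved beyond the spread. Nr1i2 and Nr1i3 overlapped with each other too, while Cyp3a44 lay below both. In Pak4_KO the median TPM of Cyp2b10 was 120.3 and that of Cyp3a13 was 109.7, with overlapping ranges.

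Nr1i3 (CAR, NCBI gene 12355, chromosome 1, 171213934 to 171218845) had 28.2, 75.0 and 25.9 CPM in the WT libraries and 47.9, 30.1 and 58.3 CPM in the Pak4_KO libraries. The highest and the lowest values of all 6 were both in WT, and the groups overlapped. The log2 fold change was 0.078 (adjusted p = 0.993, SE 0.41), with a 95% interval of -0.87 to 1.03. Its sign rests on single libraries: it was -0.16 without WT replicate 1, -0.18 without WT replicate 3, -0.14 without Pak4_KO replicate 3 and 0.75 without WT replicate 2.

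Nr1i2 (PXR, NCBI gene 18171, chromosome 16, 38248349 to 38294849) had 70.5, 101 and 68.7 CPM in WT and 114, 93.2 and 97.5 CPM in Pak4_KO. WT replicate 2 lay above 2 of the Pak4_KO libraries and the other WT libraries lay below all of them. A log2 fold change of 0.34 (adjusted p = 0.686, SE 0.18) had a 95% interval of -0.064 to 0.75. WT replicate 2, with the highest CAR and the second highest PXR value of the 6 libraries in CPM, had the lowest Cyp3a11 value. In TPM its PXR value of 65.8 lay below the 80.0 and 73.4 of Pak4_KO replicates 1 and 3. Whether receptor and Cyp3a11 levels are related over the libraries was not tested.

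Cyp2b10 (NCBI gene 13088, chromosome 7, 25897658 to 25926624), the classical CAR target, had 9.03, 67.6 and 130.2 CPM in WT and 133, 128 and 122 CPM in Pak4_KO. The WT libraries differed 14.4-fold among themselves and the Pak4_KO libraries 1.08-fold, and WT replicate 3 lay inside the Pak4_KO range. The log2 fold change was 0.89 (adjusted p = 0.830, SE 0.69), with a 95% interval of -0.70 to 2.47. Without WT replicate 1 it was 0.36 (adjusted p = 0.979) and without WT replicate 3 it was 1.74 (adjusted p = 0.486). The Pak4_KO livers all lay near the top of the WT range, and single WT libraries set how far the WT mean lies below them.

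Cyp2b13 (NCBI gene 13089, chromosome 7, 26061388 to 26096197), a female-biased relative, had 0, 0 and 3 reads in WT and 46, 0 and 59 reads in Pak4_KO. Nearly all of its reads were in 2 of the 3 Pak4_KO libraries, and Pak4_KO replicate 2 had none. Summed over the groups this is 105 reads against 3, a ratio scaled to the group totals of 34.5 with an exact 95% interval of 11.5 to 169.8, which covers counting error only and not the spread between livers. It would be too narrow if both reads of a pair were counted. Cyp2b9 (NCBI gene 13094, chromosome 7, 26173350 to 26210661), another female-biased relative, had 2 reads in WT replicate 1 and 0 in the other 5 libraries, so no fold is given. Its total in Pak4_KO of 0 allows up to 3 reads. Genes with 2 reads outnumbered genes with 1 read in each library, so 2 reads may be 1 read pair. Cyp2b10 supplied at least 99.0% of the summed Cyp2b CPM in each library. The 3 genes start 2.39 to 2.66 Mb before the RefSeq span of Pak4 on chromosome 7, the locus engineered in both groups, and whether linkage to it has a part in these values was not tested.

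Cyp3a11 (NCBI gene 13112, chromosome 5, 145854607 to 145879854), the main hepatic Cyp3a enzyme of the mouse and the standard PXR target, had 1814, 1391 and 3307 CPM in WT and 5408, 3670.3 and 5485 CPM in Pak4_KO. The lowest Pak4_KO library, replicate 2, lay just above the highest WT library, replicate 3, and the others were further apart. Means were 2171 ± 1007 CPM in WT and 4854 ± 1026 CPM in Pak4_KO (SD, n = 3 each). The log2 fold change was 1.16 (adjusted p = 0.289, SE 0.32), with a 95% interval of 0.42 to 1.90. It ran from 0.92 without WT replicate 2 to 1.60 without WT replicate 3, where the adjusted p came to 0.0549.

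Cyp3a44 (NCBI gene 337924, chromosome 5, 145773983 to 145805891), a female-biased gene, had 18.8, 15.2 and 30.0 CPM in WT and 48.9, 32.9 and 46.3 CPM in Pak4_KO. The groups did not overlap, and the libraries stood in nearly the same order as for Cyp3a11. Pak4_KO exceeded WT with a log2 fold change of 1.00 (adjusted p = 0.257, SE 0.26), with a 95% interval of 0.40 to 1.60. Cyp3a16 (NCBI gene 13114, chromosome 5, 145436309 to 145469740), expressed mainly in fetal and female liver, had 33, 32 and 78 reads in WT and 177, 82 and 110 reads in Pak4_KO, or 0.833, 0.673 and 1.55 CPM and 4.18, 1.74 and 2.20 CPM. Its Pak4_KO libraries also lay above each WT library, replicate 1 by the most. Its log2 fold change was 1.40 (adjusted p = 0.374, SE 0.44).

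Cyp3a25 (NCBI gene 56388, chromosome 5, 145977192 to 146009644), the second most abundant Cyp3a transcript of these livers on the TPM scale, had 356, 427 and 534 CPM in WT and 368, 274 and 318 CPM in Pak4_KO. Pak4_KO replicate 1 lay above WT replicate 1, and the other Pak4_KO libraries lay below all WT libraries. The log2 fold change was -0.46 (adjusted p = 0.563, SE 0.19) with an unadjusted p of 0.0375, and it was -0.29 without WT replicate 3. Cyp3a13 (NCBI gene 13113, chromosome 5, 137892933 to 137925610), which lies apart from the other Cyp3a genes on the chromosome and is expressed in liver and gut, had 214, 231 and 288 CPM in WT and 175, 264 and 166 CPM in Pak4_KO. Pak4_KO replicate 2 lay within the WT range and the other 2 below it, for a log2 fold change of -0.27 (adjusted p = 0.820, SE 0.21).

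**Figure D2:**
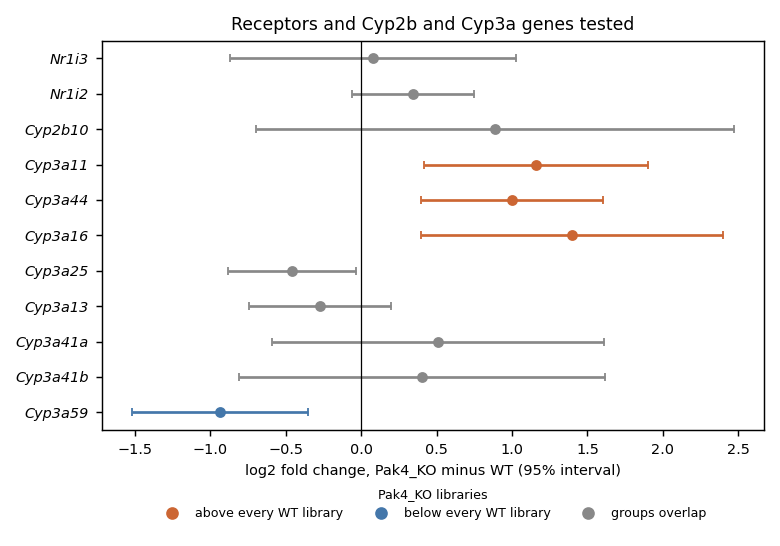
Log2 fold change in CPM (Pak4_KO minus WT) with its 95% interval for the tested receptor, Cyp2b and Cyp3a genes. Orange marks genes above each WT library in each Pak4_KO library (Cyp3a11, Cyp3a44, Cyp3a16), blue the reverse (Cyp3a59) and grey overlapping groups. The interval of Cyp2b10 is the widest of those drawn, from -0.70 to 2.47.

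The table holds 6 further Cyp2b and Cyp3a genes. Cyp3a59, a close relative of Cyp3a25, had 37.4, 33.1 and 62.5 CPM in WT and 26.4, 18.2 and 24.9 CPM in Pak4_KO. Each Pak4_KO library lay below each WT library, by 1.91-fold in the means, with a log2 fold change of -0.94 (adjusted p = 0.275, SE 0.26). The DESeq2 Wald test called it lower (adjusted p = 0.0309). The female-biased Cyp3a41a and Cyp3a41b, whose coding sequences are 99.9% identical so that their reads can hardly be told apart, had 9 to 23 and 8 to 30 reads per WT library against 18 to 21 and 18 to 23 per Pak4_KO library. Their log2 fold changes were 0.51 (adjusted p = 0.874, SE 0.48) and 0.40 (adjusted p = 0.926, SE 0.53), and that of Cyp3a41b was 1.11 without WT replicate 3. Cyp3a57 had 4 reads, all in Pak4_KO replicate 2, and Cyp2b19 and Cyp2b23 had none in any library, which allows up to 3 reads per library. Of the 3 tested, 0 were called by edgeR, where 0.469% of all genes were. At an unadjusted p under 0.05, 0 were higher and 1 was lower (Cyp3a59), where 4.51% and 3.69% of all tested genes were. Groups that did not overlap were 0 higher and 1 lower, where 7.35% and 6.06% of all tested genes did so.

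Because near copies can share reads, the 5 Cyp3a genes were also summed. The sum was 2404, 2065 and 4160.4 CPM in WT and 6004, 4243 and 6017 CPM in Pak4_KO, means of 2876 ± 1125 and 5421 ± 1020.3 CPM (SD, n = 3 each), a ratio of 1.88. The lowest Pak4_KO sum was 4243 and the highest WT sum 4160.4, so the groups were separated by little. Cyp3a11 made up 75.5%, 67.4% and 79.5% of the summed CPM in WT and 90.1%, 86.5% and 91.2% in Pak4_KO. The share of Cyp3a25 was 16.1% ± 4.07 in WT and 5.95% ± 0.608 in Pak4_KO (SD, n = 3 each), and that of Cyp3a13 8.99% ± 2.13 and 3.97% ± 1.96. CPM are not scaled for transcript length, and on the TPM scale the share of Cyp3a13 was 6.45% in WT and 2.85% in Pak4_KO. The share of Cyp3a44 in CPM was 0.747% and 0.786% in the group means. Shares of Cyp3a11 in Pak4_KO lay above all WT shares, and those of Cyp3a25 and Cyp3a13 below them. Shares of the same sum move against each other, so a rise of Cyp3a11 lowers the others. In CPM the groups of Cyp3a25 and Cyp3a13 overlapped. The summed Cyp2b level was 69.0 ± 60.6 CPM in WT and 128 ± 5.10 CPM in Pak4_KO (SD, n = 3 each), a ratio of 1.86 that rests on the same WT libraries as that of Cyp2b10.

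Read numbers set against Cyp3a11 in the same library do not depend on how libraries were scaled. Cyp3a44 reads were 1.04, 1.09 and 0.908 percent of the Cyp3a11 reads in WT and 0.905, 0.895 and 0.844 percent in Pak4_KO. This proportion varied 1.29-fold over the 6 libraries, while Cyp3a11 itself varied 3.94-fold in CPM. Cyp3a16 reads were 0.0459, 0.0484 and 0.0469 percent of the Cyp3a11 reads in WT and 0.0772, 0.0473 and 0.0401 percent in Pak4_KO, with Pak4_KO replicate 1 above the other 5 libraries. Cyp3a25 reads were 19.6, 30.7 and 16.1 percent in WT and 6.80, 7.46 and 5.79 percent in Pak4_KO. Cyp3a13 reads were 11.8, 16.6 and 8.70 percent in WT and 3.24, 7.20 and 3.03 percent in Pak4_KO. The Pak4_KO proportions of Cyp3a25, Cyp3a13 and Cyp3a44 lay below each WT proportion, at 0.302, 0.364 and 0.870 times the WT mean. Cyp3a11, the divisor, was itself 2.24-fold higher in Pak4_KO, so the proportion of an unchanged gene would fall too. In mean CPM, Cyp3a25 and Cyp3a13 were at 0.728 and 0.828 times WT with groups that overlapped. An exact two-sided permutation test gave p = 0.1 for the Cyp3a25, Cyp3a13 and Cyp3a44 proportions each and p = 0.8 for Cyp3a16. Adjusted over the 4 proportions these were 0.133 and 0.8, and with 3 libraries against 3 the test cannot give less than 0.1. Cyp3a59, outside those 4, stood at 2.06, 2.38 and 1.89 percent of the Cyp3a11 reads in WT and 0.489, 0.497 and 0.453 percent in Pak4_KO.

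**Figure D3:**
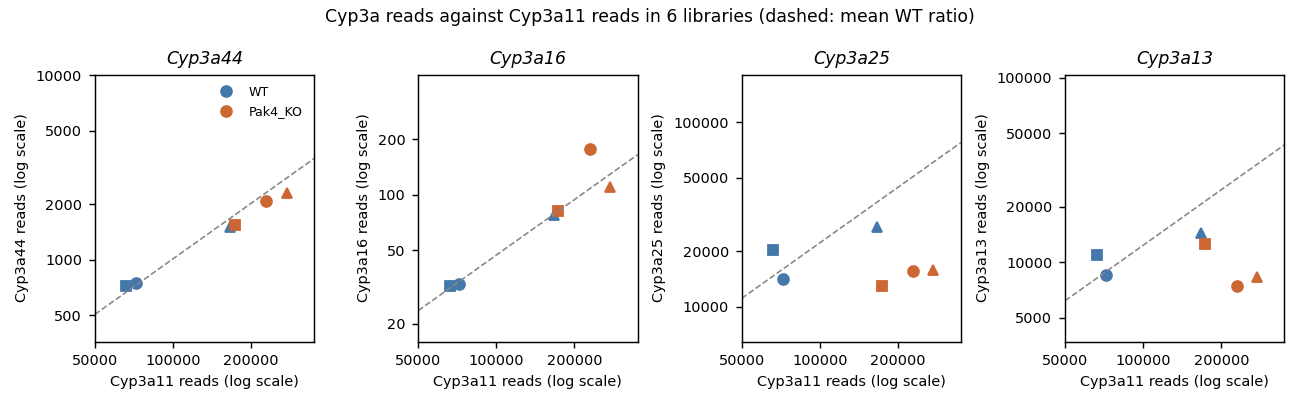
Reads of Cyp3a44, Cyp3a16, Cyp3a25 and Cyp3a13 against Cyp3a11 reads in each library, both axes on log scales, with WT in blue, Pak4_KO in orange, circles, squares and triangles for replicates 1, 2 and 3 and the dashed line at the mean WT proportion. Cyp3a44 follows the line over all 6 libraries with the Pak4_KO points a little under it, Cyp3a16 follows it but for Pak4_KO replicate 1, and the Pak4_KO points of Cyp3a25 and Cyp3a13 lie under it.

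How alike the copies are bears on these proportions. In the GENCODE M21 transcripts the coding sequence of Cyp3a11 was 94.9% identical to that of Cyp3a44 and 92.8% to that of Cyp3a16, but 76.1% to that of Cyp3a25 and 76.7% to that of Cyp3a13. Of all 50-base stretches of Cyp3a44 transcripts 6.95% also occurred in Cyp3a11, and of 100-base stretches 0.268%; for Cyp3a16 these were 6.13% and 0.123%, and for Cyp3a25 and Cyp3a13 none. The longest identical coding stretch of Cyp3a11 and Cyp3a44 is shown to give the scale, since a read inside it fits both genes. It has 104 bases, at coding bases 512 to 615 in exons 6 and 7 (chr5:145868591-145868965, minus strand, GRCm38, spliced).
Cyp3a11 and Cyp3a44: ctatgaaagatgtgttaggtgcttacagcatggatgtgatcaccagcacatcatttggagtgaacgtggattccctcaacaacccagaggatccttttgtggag
Neither the read length nor how reads that fit more than 1 gene were handled is stated in the sources used here. Whether reads of Cyp3a11 entered the counts of Cyp3a44 or Cyp3a16 was not tested, so the values of Cyp3a44, Cyp3a16, Cyp3a41a and Cyp3a41b are uncertain where Cyp3a11 is far more abundant. The same holds for Cyp3a59 beside Cyp3a25, whose coding sequences are 97.5% identical, and for Cyp2b13 beside Cyp2b10, at 88.8%. Cyp3a59 reads were 10.5, 7.76 and 11.7 percent of the Cyp3a25 reads in WT and 7.19, 6.66 and 7.83 percent in Pak4_KO.

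The library pattern of 3 of these genes was compared with that of 7156 tested genes with at least 10 CPM on average, by the root mean square difference of centred log2 CPM over the 6 libraries. Genes with Gm, LOC, Rik or accession-like symbols and many with hyphenated symbols, such as mitochondrially encoded genes, had been left out. The nearest genes are picked for likeness over these 6 libraries, so high or low libraries that they share follow from the choice. Cyp3a44 was most like Cyp3a11 (0.131, where the own spread of Cyp3a11 was 0.744 by the same measure), followed by Tead1, a DNA-binding partner of YAP (0.221), and Steap2, a metalloreductase (0.281). Tead1 had 104, 77.3 and 151 CPM in WT and 227, 239.9 and 257 CPM in Pak4_KO. The genes most like Nr1i3 were Hjv, which encodes the iron regulator hemojuvelin (0.153 against an own spread of 0.577), the fatty acid desaturase Fads2 (0.217) and Clmn (0.223), all with their highest WT value in replicate 2. None came close to Cyp2b10: its nearest were Cyp4a10 (0.807), Ddah1 (0.830) and Cyp4a31 (0.841) against an own spread of 1.40. Cyp4a10 and Cyp4a31, fatty acid hydroxylases known as PPARα targets and near copies that can share reads, were lowest in WT replicate 1 as Cyp2b10 was, with Cyp4a10 at 56.0, 230.5 and 137 CPM in WT and 496, 386 and 594 CPM in Pak4_KO.

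Beyond the receptors, 25 genes for their partners, coregulators and upstream factors were listed, and all were tested. None was called, where 0.469% of all genes were. At an unadjusted p under 0.05, 0 were higher and 1 was lower (4.51% and 3.69% of all tested genes). Log2 fold changes were positive for 9 and negative for 16, with a median of -0.11. The DESeq2 Wald test called none of them either. Groups that did not overlap were 1 higher and 3 lower, where 7.35% and 6.06% of all tested genes did so. Foxa2, a liver pioneer factor, had 14.8, 15.1 and 13.6 CPM in WT and 10.6, 11.7 and 11.9 CPM in Pak4_KO. The groups did not overlap, with a log2 fold change of -0.35 (adjusted p = 0.542, SE 0.14). Nr3c1, the glucocorticoid receptor, known to act upstream of both receptor genes, had 106, 133 and 100.4 CPM in WT and 99.9, 88.5 and 79.8 CPM in Pak4_KO, with -0.34 (adjusted p = 0.624, SE 0.15) on the log2 scale. Its groups did not overlap either, though the nearest libraries of the groups were close. Named for their roles after their values were seen, Rxra, the shared DNA-binding partner, had 315, 306 and 294 CPM in WT and 304, 255 and 344 CPM in Pak4_KO, a log2 fold change of -0.018 (adjusted p = 0.996, SE 0.14). Por, the reductase that feeds electrons to the P450 enzymes, had 407, 475 and 391 CPM in WT and 455, 426 and 448 CPM in Pak4_KO, a log2 fold change of 0.063 (adjusted p = 0.959, SE 0.13). The groups overlapped for both.

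Of 35 listed CAR and PXR targets outside Cyp2b and Cyp3a, 34 were matched and 33 tested. None was called by edgeR, where 0.469% of all genes were. At an unadjusted p under 0.05, 5 were higher and 2 lower, where 4.51% and 3.69% of all tested genes were. Of the 33, 3 were above each WT library in each Pak4_KO library and 1 below, where 7.35% and 6.06% of all tested genes were, and 15 had positive and 18 negative log2 fold changes with a median of -0.06. Ugt1a9, a glucuronosyltransferase of phase II metabolism, had 78.3, 88.2 and 105 CPM in WT and 234, 166 and 163 CPM in Pak4_KO. The groups did not overlap, with a log2 fold change of 1.05 (adjusted p = 0.0617, SE 0.18), and its adjusted p was 5.79e-05 with the DESeq2 Wald test, 0.0446 with library size alone as the scale and 0.0445 with limma-trend on log2(TPM + 1). Leaving out 1 library at a time gave adjusted p of 0.0745 to 0.242. Genes of the Ugt1a locus share their last exons, so reads assigned to Ugt1a9 can come from other Ugt1a transcripts. Ephx1, microsomal epoxide hydrolase, had 183, 175 and 180.3 CPM in WT and 262, 222 and 299 CPM in Pak4_KO. Its groups did not overlap either, with a log2 fold change of 0.54 (adjusted p = 0.255, SE 0.14) and an adjusted p of 0.0404 with DESeq2. DESeq2 called 3 of the 33, all higher, where it called 175 higher and 159 lower of all 16197 tested genes. The third, Akr1b7, an aldo-keto reductase, had 2.90, 1.89 and 4.39 CPM in WT and 8.64, 15.3 and 5.06 CPM in Pak4_KO. By edgeR it had 1.65 (adjusted p = 0.257, SE 0.44) on the log2 scale. Named after their values were seen, the transporters Abcc3 and Slco1a4 had positive log2 fold changes of 0.58 (adjusted p = 0.401, SE 0.19) and 0.68 (adjusted p = 0.473, SE 0.24), and the lipogenic gene Thrsp and the sulfotransferase Sult1d1 negative ones of -1.13 (adjusted p = 0.465, SE 0.39) and -0.67 (adjusted p = 0.440, SE 0.23).

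**Figure D4:**
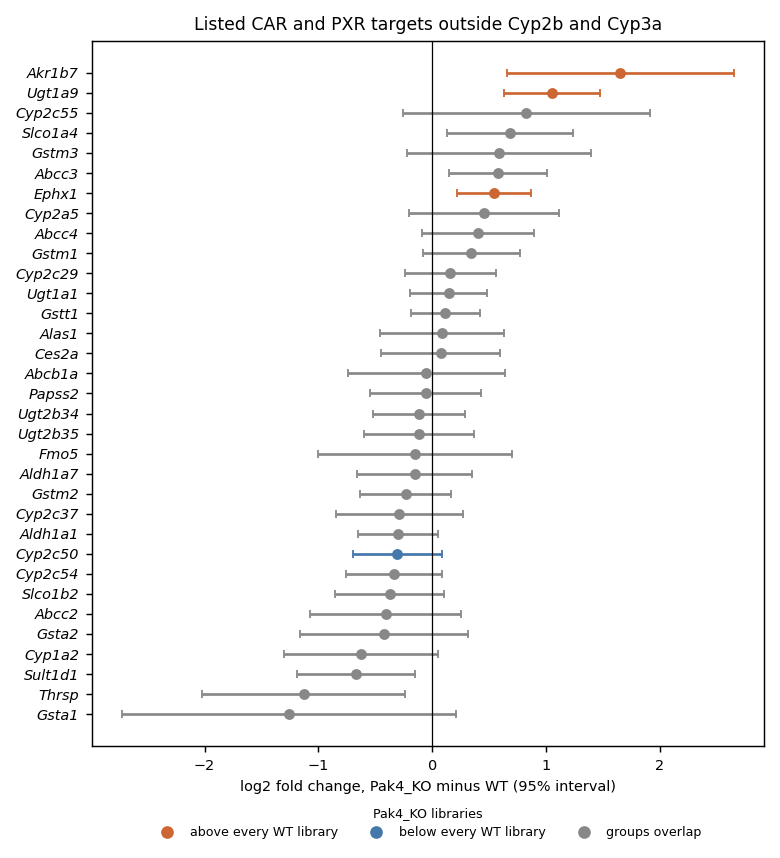
Log2 fold change in CPM (Pak4_KO minus WT) with its 95% interval for the 33 tested CAR and PXR targets outside Cyp2b and Cyp3a, ordered by value. Orange marks genes above each WT library in each Pak4_KO library (Akr1b7, Ugt1a9, Ephx1), blue the reverse (Cyp2c50) and grey overlapping groups. The 15 positive and 18 negative values lie on both sides of 0.

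Markers of the cells in which these genes are expressed were read beside them. The 12 hepatocyte markers summed to 92650 to 110949 CPM in WT and 94166 to 108790 CPM in Pak4_KO and had a median log2 fold change of -0.03. Serpina1b and Serpina1a, secreted protease inhibitors whose near copies can share reads, had log2 fold changes of -0.48 (adjusted p = 0.508, SE 0.18) and -0.36 (adjusted p = 0.650, SE 0.17). The 13 genes of hepatocytes near the central vein, where CAR, PXR and their P450 targets are strongest, summed to 7105 to 7570 CPM in WT and 5743 to 7631 CPM in Pak4_KO. Of these, 2 had positive and 11 negative log2 fold changes, with a median of -0.17, and 1 was higher and 2 lower at an unadjusted p under 0.05, against 4.51% and 3.69% of all tested genes. Slc1a2, a glutamate transporter, had 0.44 (adjusted p = 0.541, SE 0.17) and Gulo, an enzyme of vitamin C synthesis, -0.49 (adjusted p = 0.568, SE 0.20). The 13 periportal genes had 6 positive and 7 negative values with a median of -0.0083, and Hsd17b13 and Sdsl had 0.28 (adjusted p = 0.670, SE 0.14) and 0.43 (adjusted p = 0.741, SE 0.26). None of these markers was called by edgeR or DESeq2.

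Markers of other cell types were compared in the same way. Cholangiocyte markers summed to 31.5 to 50.7 CPM in WT and 42.8 to 68.6 CPM in Pak4_KO, with 7 of 8 tested log2 fold changes positive, among them Epcam at 0.97 (adjusted p = 0.344, SE 0.29) and Tspan8 at 1.66 (adjusted p = 0.429, SE 0.55), the latter at 2.49 without WT replicate 1. Endothelial markers were positive in 8 of 8 (sums of 245 to 307 CPM in WT and 251 to 355 CPM in Pak4_KO), with Vwf at 1.04 (adjusted p = 0.303, SE 0.30) and Pecam1 at 0.37 (adjusted p = 0.669, SE 0.18). Stellate cell markers were positive in 7 of 8 (220.3 to 332 CPM and 217 to 400.0 CPM), with Lrat at 0.86 (adjusted p = 0.152, SE 0.19) and Col3a1 at 0.84 (adjusted p = 0.383, SE 0.27). Macrophage markers were negative in 9 of 9 (370.5 to 460.3 CPM and 301 to 391 CPM), with Cd68 at -0.66 (adjusted p = 0.492, SE 0.24) and Cd5l at -0.39 (adjusted p = 0.556, SE 0.16). None was called by edgeR, where 0.469% of all genes were. DESeq2 called Vwf and Lrat higher, where it called 175 higher and 159 lower of all 16197 tested genes. The named genes are those with the smallest raw p, and the list medians were 0.83 for cholangiocytes, 0.12 for endothelium, 0.16 for stellate cells and -0.26 for macrophages. At an unadjusted p under 0.05, 2 cholangiocyte, 1 endothelial and 3 stellate markers were higher and 2 macrophage markers lower. Of all tested genes, 4.51% were higher and 3.69% lower by that rule. Of the markers of intestinal epithelium, which also expresses Cyp3a13, Cdx1, Cdx2 and Alpi had 0 reads in each library, the list summed to 35.8 to 47.3 CPM in WT and 36.5 to 47.7 CPM in Pak4_KO, and Lgals4 and Muc2 had -0.54 (adjusted p = 0.377, SE 0.17) and -1.34 (adjusted p = 0.823, SE 1.03), Muc2 at -0.41 without WT replicate 2. The part of these cell types in the Cyp3a values was not tested.

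Since several of the Cyp2b and Cyp3a genes differ between the sexes, genes that report sex were read too. The labels do not give the sex. Xist, expressed from the inactive X chromosome of females, had at most 0.318 CPM in any library, and Y-linked Ddx3y had at least 120.3 CPM in each of the 6 libraries. Of 11 listed regulators of sex-biased liver expression, none was called by edgeR, where 0.469% of all genes were, and 0 were higher and 1 was lower at an unadjusted p under 0.05, where 4.51% and 3.69% of all genes were. Bcl6, a repressor of female-biased genes in male liver, had 16.0, 18.4 and 14.9 CPM in WT and 10.2, 8.74 and 9.72 CPM in Pak4_KO. Each Pak4_KO library lay below each WT library, with a log2 fold change of -0.78 (adjusted p = 0.0977, SE 0.15) and a DESeq2 adjusted p of 0.000857. Cish, a target of growth hormone signalling, had 12.4, 5.53 and 5.37 CPM in WT and 12.5, 12.4 and 12.8 CPM in Pak4_KO, with a log2 fold change of 0.70 (adjusted p = 0.627, SE 0.31). Whether Bcl6 has a part in the levels of Cyp2b13, Cyp3a16 or Cyp3a44 was not tested.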

How the data were processed

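Libraries were made from liver RNA with a stranded, poly(A)-selecting Illumina kit, per the labels' protocols. StringTie 2.1.3b, HISAT2 2.1.0, Bowtie2 2.3.4.1 and build mm10 are named in the submitters' processing notes. The annotation release, the strandedness used and how reads with several matches were treated do not stand in the sources used here. The deposited table holds unnormalized read counts per gene and library, TPM and FPKM, per the file headers. Counts were tested, TPM deposited by the authors were used for levels between genes and for 2 alternatives, and FPKM deposited by the authors were not used. Symbols were placed through NCBI gene identifiers on RefSeq GRCm38.p6 (45679 of 45777 matched). Each library's column was matched to its sample by genotype and replicate number.

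The test was edgeR 4.0.16 in R 4.3.3 on all 6 libraries: filterByExpr with a minimum count of 10 (16197 genes kept), TMM factors, quasi-likelihood F-test, two-sided, calls at an adjusted p under 0.05. The SE is the absolute log2 fold change over the square root of F, and 95% intervals use the degrees of freedom of each gene's test. CPM are TMM-scaled. Replicates of a group differed beyond counting noise (chi-square per gene of 65.3 or more), so no library was counted as deposited again; whether 2 came from the same animal was not tested. The procedure was tested on simulated data.

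The 10 genes, the lists and the tests were chosen with earlier results of these data known. Named from each list are its called genes or, with none called, the 2 with the smallest raw p. All 10 genes, Pak4, the 6 further Cyp2b and Cyp3a genes and the 3 genes most like Nr1i3, Cyp2b10 and Cyp3a11 are named too. Read proportions to Cyp3a11, and the same from TPM, were added after the data were seen. As alternatives, library size alone, upper quartile and DESeq2 size factors, no filter, at least 10 reads in every library, DESeq2 1.42.0, limma-voom and limma-trend (limma 3.58.1), robust edgeR, a replicate block and leaving out each library were tried. Exact binomial intervals cover counting error only.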

Additional observations from a re-analysis of the deposited data

How the results depend on the processing

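For the 8 tested receptor, Cyp2b and Cyp3a genes, 131 of 136 alternative fits kept the direction and the side of the threshold, 3 reversed and 2 passed it. The 2 were the DESeq2 Wald test of Cyp3a11 (1.15) and Cyp3a44 (0.99), so that DESeq2 called 2 of the 8 higher. Leaving out 1 library at a time gave log2 fold changes of -0.18 to 0.75 for Nr1i3, with negative values of -0.16 without WT replicate 1, -0.18 without WT replicate 3 and -0.14 without Pak4_KO replicate 3. By the same step Cyp2b10 ran from 0.36 to 1.74, Cyp3a11 from 0.92 to 1.60, Cyp3a16 from 0.94 to 1.84 and Cyp3a25 from -0.60 to -0.29. Over the whole table, 43 genes were called higher and 33 lower. DESeq2 called 175 and 159, the minimum of 10 reads in every library left 16 higher calls, and leaving out 1 library gave 22 to 34 higher and 13 to 47 lower; the causes were not tested. Pak4 kept its direction in all 17 alternatives, with adjusted p of 0.0562, 0.0608 and 0.0936 without WT replicate 1, WT replicate 2 or Pak4_KO replicate 3. Cyp3a59, Ephx1, Vwf, Lrat and Bcl6 passed the threshold with DESeq2 alone, and Ugt1a9 with DESeq2, library size alone and both TPM fits. The median of the 33 targets was 0.062 without WT replicate 2 and -0.16 or -0.17 without WT replicate 1 or Pak4_KO replicate 1, and 0.012 and 0.013 with the TPM fits. With the replicate number as a block, 39 genes were called higher and 34 lower, none of the 8 was called, Cyp3a11 had 1.24 and Cyp2b10 1.46; same-numbered libraries had deviation correlations of 0.067, -0.20 and 0.15, so the numbers were not taken as pairs. Proportions from TPM gave 0.857, 1.19, 0.301 and 0.368 times the WT mean for Cyp3a44, Cyp3a16, Cyp3a25 and Cyp3a13.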
